A study of Mus musculus with 14 samples.

Results

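The cytosolic ribosome is built from ribosomal RNA and a set of proteins that each come from their own nuclear gene, and these genes were followed through the spleens of mice with psoriasis-like skin inflammation. Members were the protein-coding entries of the count table whose symbol is Rps or Rpl with a number and at most 1 further letter, Rplp with a number, or Rpsa. The rule found 81 of 22116 named entries, of which 32 encode proteins of the small subunit and 49 proteins of the large subunit. It uses names alone and no measured value. Ribosomal proteins whose genes carry other names (such as Fau, Rack1 and Rps3a1) fall outside it and were read separately.

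The small subunit reads the mRNA, and the large subunit joins the amino acids. Because each ribosome takes 1 copy of nearly every protein, cells make these proteins in near-equal amounts, and surplus ones are degraded. Their mRNAs are among the most abundant in most tissues and begin with a run of pyrimidines, the 5′ terminal oligopyrimidine tract, through which the mTOR pathway and the protein LARP1 govern their translation and stability. Growing and dividing cells, such as activated lymphocytes and early red cell precursors of the mouse spleen, are known for high ribosome production.

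All mice were wild-type female BALB/c animals of 6 to 8 weeks. The control group (3 mice, replicates 2, 4 and 5) received petrolatum vehicle on dorsal skin and ears according to the sample protocols, although the series' design text calls it untreated. The imiquimod-dorsal group (4 mice, replicates 2 to 5) had cream with 5% imiquimod, an agonist of Toll-like receptor 7, on the dorsal skin daily for 5 days, and the imiquimod-ear group (4 mice, replicates 1, 3, 4 and 5) had the same cream on the ear. The IL-23-ear group (3 mice, replicates 1, 2 and 3) had 4 intradermal injections of 1 µg recombinant mouse IL-23, a cytokine that sustains IL-17-producing T cells, per ear over 7 days. No vehicle-injected group is among these samples, so injection and IL-23 cannot be told apart. Poly(A) RNA of the whole spleen was sequenced, the labels put all libraries in 1 batch, and they call the samples biological replicates without naming animals, so p-values measure the spread between these samples.

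The libraries held 28354674 to 40289411 counts over named genes. All 7 spleen markers were in the table, with a summed level of 1371 to 1983 CPM (a gene's counts scaled to the same library total). Cell type markers moved strongly with the groups, here as summed CPM scaled with TMM, a trimmed mean that sets libraries to a common centre of all genes. The 12 erythroid markers spanned 9609 to 30449 in control, 66643 to 112230 in imiquimod-dorsal, 6184 to 42158 in imiquimod-ear and 2786 to 11287 in IL-23-ear libraries, and were all higher with dorsal imiquimod. In the same order the 6 proliferation markers spanned 518 to 927, 4078 to 5303, 892 to 2254 and 537 to 724, and the 8 neutrophil markers 77.3 to 149, 1217 to 2184, 175 to 714 and 101 to 448. For the 8 T cell markers found in the table, of 9 listed, the ranges were 745 to 1066, 192 to 237, 535 to 964 and 1104 to 1233, and for the 7 plasma cell markers 1129 to 1403, 931 to 1495, 3017 to 4536 and 1179 to 1599.5. The part of these cell types in the results below was not tested, and in whole spleen fewer cells of a type and less RNA per cell cannot be told apart. The 8 B cell markers spanned 3837 to 4029 in control and 2811 to 3381 in imiquimod-dorsal, with 3252 to 3699.9 and 3822 to 4163 in the ear groups. The 6 pancreas markers reached 292 in imiquimod-dorsal 4, where the lowest of that group was 12.9 and no library of another group passed 12.9; without it 62 members were called in imiquimod-dorsal against control, against 65 with it. Imiquimod-ear 5 stood apart from its group: on the first principal component of all genes it lay at -30.98, against -4.94 to 4.42 for the other imiquimod-ear libraries and -51.68 to -33.22 for the controls. Values without it are given below for some results only, and others also shifted.

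Transcription starts of 60 of the 81 members were found in RefSeq's promoter table (mouse build GRCm38.p6), and those of 21 were not; among the latter are Rpl3, Rpl7, Rpl8, Rpl17, Rpl21, Rpl23a, Rpl29, Rpl30, Rpl32, Rpl36, Rplp1, Rps4l, Rps14, Rps20, Rps27a and Rps29. The lines that follow show examples with and without the pyrimidine run for which these genes are known, in 30 bases before and 15 bases after the annotated start, with capitals for the unbroken run of C and T that opens the transcript. Rpl15 (chr14:18270972-18271016, minus strand), Rps10 (chr17:27635230-27635274, minus), Rps6 (chr4:86857353-86857397, minus), Rpl28 (chr7:4792935-4792979, plus) and Rps27 (chr3:90213634-90213678, minus) hold such a run. Rps27l (chr9:66946056-66946100, plus), the first of its 2 listed starts, and Rpl41 (chr10:128549154-128549198, minus) hold none that opens at the listed start itself. In Rps27l a run of C and T does begin within 5 bases after that start, so it meets the wider rule given below, which Rpl41 does not. Both are shown because their levels rose with imiquimod, as described further on.
Rpl15: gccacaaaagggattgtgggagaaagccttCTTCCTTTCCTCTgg
Rps10: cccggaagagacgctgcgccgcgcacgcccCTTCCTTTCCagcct
Rps6: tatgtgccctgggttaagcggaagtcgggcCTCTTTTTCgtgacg
Rpl28: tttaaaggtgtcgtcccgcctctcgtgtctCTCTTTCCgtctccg
Rps27: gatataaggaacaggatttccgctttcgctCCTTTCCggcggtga
Rps27l: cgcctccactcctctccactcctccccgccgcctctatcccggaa
Rpl41: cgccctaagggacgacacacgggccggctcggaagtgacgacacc

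A C at the start followed by 4 letters that are each C or T was present in 13 of the 60 members (21.7%), against 2.97% of 26965 other genes, and it was found in 6 of 23 small and 7 of 37 large subunit genes. Allowing the run to begin within 5 bases of the annotated start, on the transcribed strand, raised this to 28 members (46.7%), against 21.1% of the other genes. In the 250 bases before the start, on either strand, CCGGAAG, the core bound by ETS factors such as GABPA, was found in 18 members (30%) and 7.78% of other genes, and TATAAA in 3 members (5.0%) and 14.3% of other genes. AAGATGGC, the core bound by YY1, was searched over the whole 300-base window on both strands and occurred in 5 members (8.33%), against 3.18% of other genes. A match is a description of letters at annotated starts and says nothing about binding in these spleens.

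Most members were detected at similar levels. Per kilobase of coding sequence, the mean CPM over 14 libraries had a median of 1490 across the 76 members other than 5 minor paralogs, and 61 of the 76 lay within 2-fold of it. Rpl41, which encodes a peptide so short that its coding length is 75 bases, was highest at 792% of the median. This divisor leaves out the untranslated parts, whose reads can also count for the gene, and how far that raises the value was not tested. Rplp1 (238%), an acidic protein of the stalk that recruits elongation factors, and Rps24 (217%) and Rps15 (207%), proteins of the small subunit, came next.

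Another 6 members fell under 10% of the median: Rpl21 (0.65%), Rpl29 (2.53%), Rpl26 (3.65%), Rps2 (5.17%), Rps18 (9.4%) and Rpl30 (9.93%). Ribosomal protein genes have many processed copies elsewhere in the genome, and a read that matches several places can be lost or moved by the counting. Windows of 150 bases of the transcript, centred in the coding sequence and able to reach into untranslated parts, were searched in build GRCm39. In 35 of the 81 members over 50% of these windows had an exact copy elsewhere, and in 13 none did. How such reads were treated is not given in the sources used here. For Rps18, with copies of 27.3% of its windows, the processed copy Rps18-ps6, on chromosome 13, which the annotation lists as protein-coding, held 84.6% to 88.1% of the counts of the pair in each library; whether these are reads of Rps18 or of the copy was not tested. For Rpl9, Rpl10 and Rplp2 the listed copies held 9.66% to 11.4%, 3.14% to 3.49% and 0.438% to 0.765%. Across the 76 members the level and the percent of copied windows had a Spearman correlation of -0.23, as a description.

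**Figure D1:**
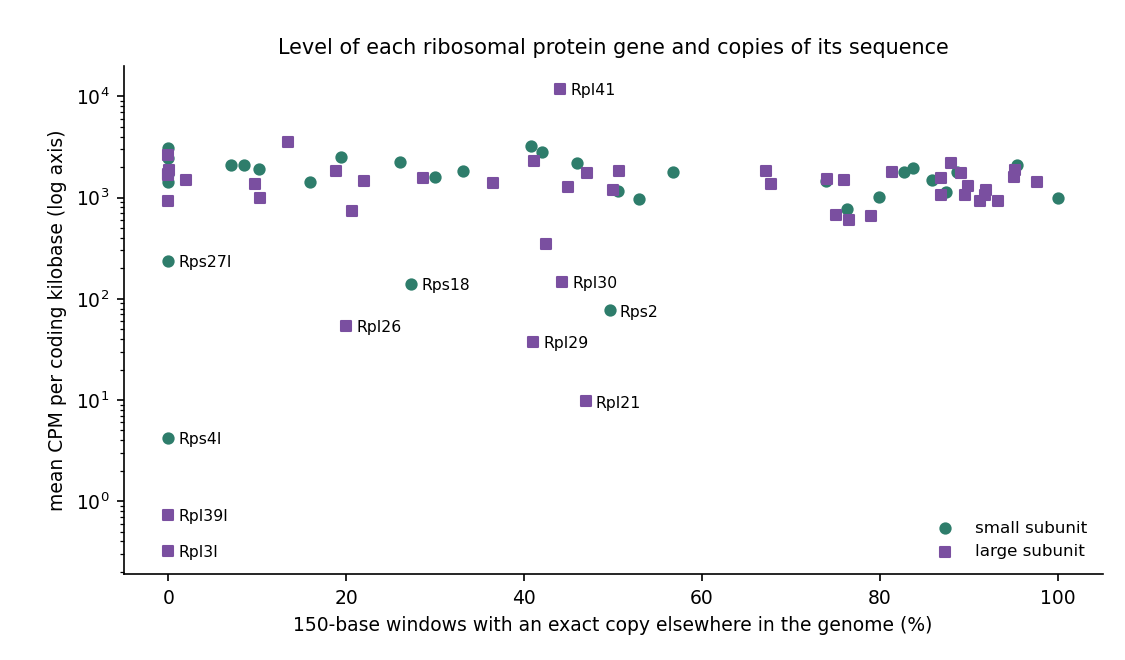
Mean CPM per coding kilobase over 14 libraries (log axis) against the percent of 150-base transcript windows, centred in the coding sequence, with an exact copy elsewhere in the genome. Each member is 1 point, circles are small and squares large subunit genes, and Rpl10l, with 0 counts, is not drawn. Most members lie near 1490, with Rpl21 at 0.65% and Rpl41 at 792% of that median.

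The minor paralogs were scarce. Rpl10l, known in the mouse from the testis, had 0 counts in all 14 libraries, which allows up to 3 counts or 0.0745 to 0.106 CPM. Rpl39l, also known from the testis, had 0 to 19 counts, and Rpl3l, known from heart and skeletal muscle, 0 to 7 counts in 13 libraries and 86 in imiquimod-ear 4. These 3 were too low to test, which left 78 members tested. Rps4l reached 1.35 to 4.79 CPM, and Rps27l, described below, was the most abundant of them, at 15.8% of the median per coding kilobase.

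The share of all counts that fell in ribosomal protein genes was higher in both ear groups than in control. It was 5.34%, 5.31% and 5.68% in the control libraries, 6.38%, 6.60%, 6.21% and 6.19% in imiquimod-ear, and 6.27%, 6.45% and 6.41% in IL-23-ear. Every library of both ear groups lay above every control. The group means were 5.44% ± 0.205 (SD, n = 3), 6.34% ± 0.189 (SD, n = 4) and 6.38% ± 0.0935 (SD, n = 3), or 1.17 times the control in each ear group. In imiquimod-dorsal the share was 5.11%, 5.12%, 5.32% and 5.46%, which overlaps the control range, with a mean of 5.25% ± 0.171 (SD, n = 4). Leaving haemoglobin and immunoglobulin genes out of the totals turned the imiquimod-dorsal share from 0.965 to 1.03 times the control, so its direction rests on what the total includes.

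The ratio of small to large subunit counts does not depend on library scaling, and it was lowest with imiquimod on the back. It was 0.782, 0.767 and 0.748 in control, and 0.736, 0.711, 0.723 and 0.732 in imiquimod-dorsal. Every imiquimod-dorsal library lay below every control, and the group mean of 0.725 ± 0.0112 (SD, n = 4) compares with 0.766 ± 0.017 (SD, n = 3). In imiquimod-ear it was 0.745, 0.726, 0.730 and 0.781, with the highest value in replicate 5; the other imiquimod-ear libraries lay below every control, and the group with replicate 5 overlapped it (mean 0.745 ± 0.025, SD, n = 4). Without replicate 5 the imiquimod-ear ratio was 0.958 of the control, against 0.974 with it. The IL-23-ear libraries, at 0.777, 0.775 and 0.773, lay within the control range. As a mean of log2 CPM over members other than the minor paralogs, the imiquimod-ear ratio was 0.9945 of the control. On that measure imiquimod-ear 1, with small minus large at 0.4147, lay within the control range of 0.3683 to 0.4509.

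Both sums behind the lower ratio with dorsal imiquimod overlapped control. Small subunit genes took 2.36% ± 0.0643 (SD, n = 3) of counts in control and 2.21% ± 0.0801 (SD, n = 4) in imiquimod-dorsal, and large subunit genes 3.08% ± 0.143 (SD, n = 3) and 3.05% ± 0.0946 (SD, n = 4). The ratio of the imiquimod-dorsal mean to the control mean was 0.947, and it was 0.941 without the 11 members that varied most between replicates, a choice made after the data were seen, and 0.948 as a mean of log2 CPM over members other than the minor paralogs. No p is given for these sums, since the members were chosen with results of the data known.

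**Figure D2:**
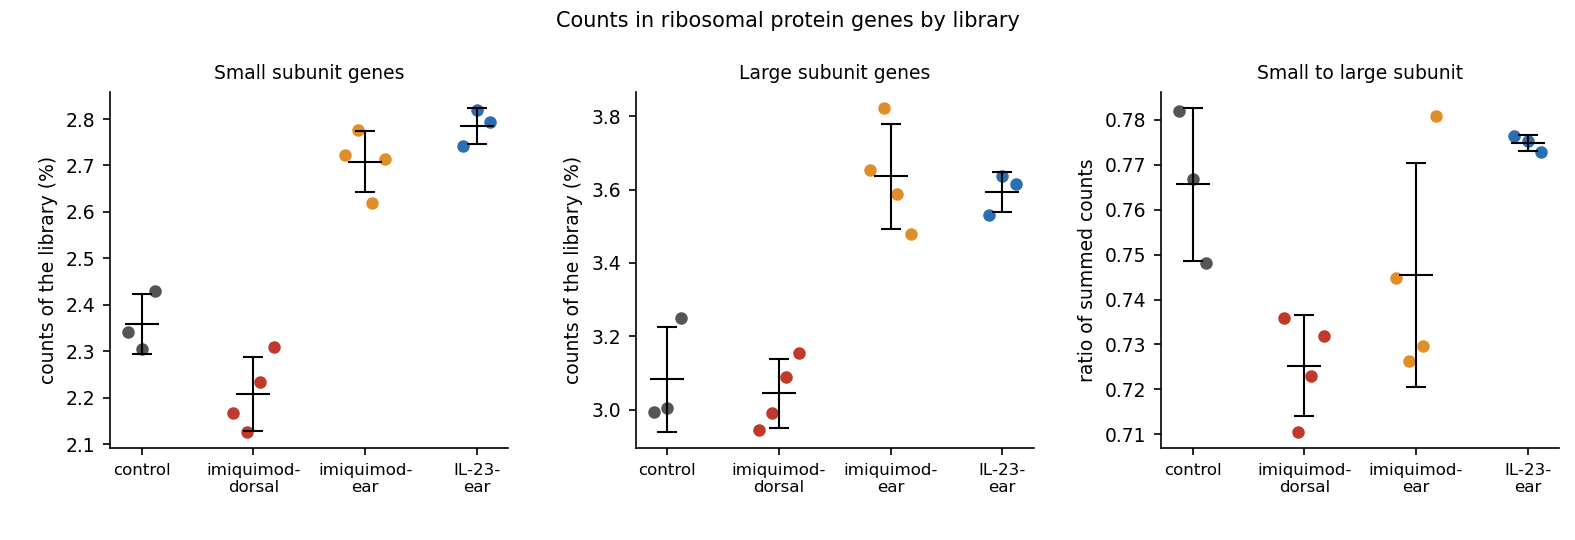
Percent of each library's counts in small and in large subunit genes, and the ratio of the 2 sums, for 14 libraries; points are libraries and bars the mean ± SD, on axes that do not start at 0. Both ear groups lie above the controls in both shares, and the ratio is lowest in imiquimod-dorsal, where it spans 0.711 to 0.736. Removal of haemoglobin and immunoglobulin genes turns the imiquimod-dorsal share of all members from 0.965 to 1.03 times the control. It cannot change the ratio, which does not use the total.

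With imiquimod on the back, 64 of the 78 tested members were higher than in control and 1, Rps27, was lower, at an adjusted p under 0.05 by edgeR's quasi-likelihood test with TMM scaling and Benjamini-Hochberg adjustment. That comparison moved much of the transcriptome: 59.8% of all tested genes were called, 32.3% higher and 27.6% lower. The changes were small, with a median log2 fold change of 0.29 over the members against -0.00 over all genes, and they ranged from -0.17 to 1.28. In the small subunit 26 of 32 were higher and 1 lower (median 0.23), and in the large subunit 38 of 46 were higher (median 0.33). Without control 2 or control 4 the calls fell to 42 or 39 of 78.

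The directions of this comparison depend on the scaling: with library totals alone 7 members were higher and 16 lower (background 65.9% called, 18.1% higher and 47.8% lower), and the medians of the small and large subunit were -0.10 and -0.01. That scaling moved the median of all genes to -0.33, so that relative to all genes both subunits again lay above it. TMM factors were 1.0992 to 1.1022 in control and 0.8346 to 0.9023 in imiquimod-dorsal libraries. Short genes also moved together: 2301 other genes with a coding length of at most 600 bases had a median log2 fold change of 0.24 with dorsal imiquimod, 0.20 with imiquimod on the ear and 0.11 with IL-23, against -0.04, -0.01 and -0.00 for longer genes, and members are short (median coding length 454 bases, against 1329 over all tested genes). With the trend on gene length removed, 3 members were higher and 3 lower with dorsal imiquimod (background 44.8%), with medians of -0.15 in the small and -0.00 in the large subunit against -0.17 over all genes. None was then called with ear imiquimod (background 6.52%) or IL-23 (background 0%). The part of gene length in these results was not tested further.

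**Figure D3:**
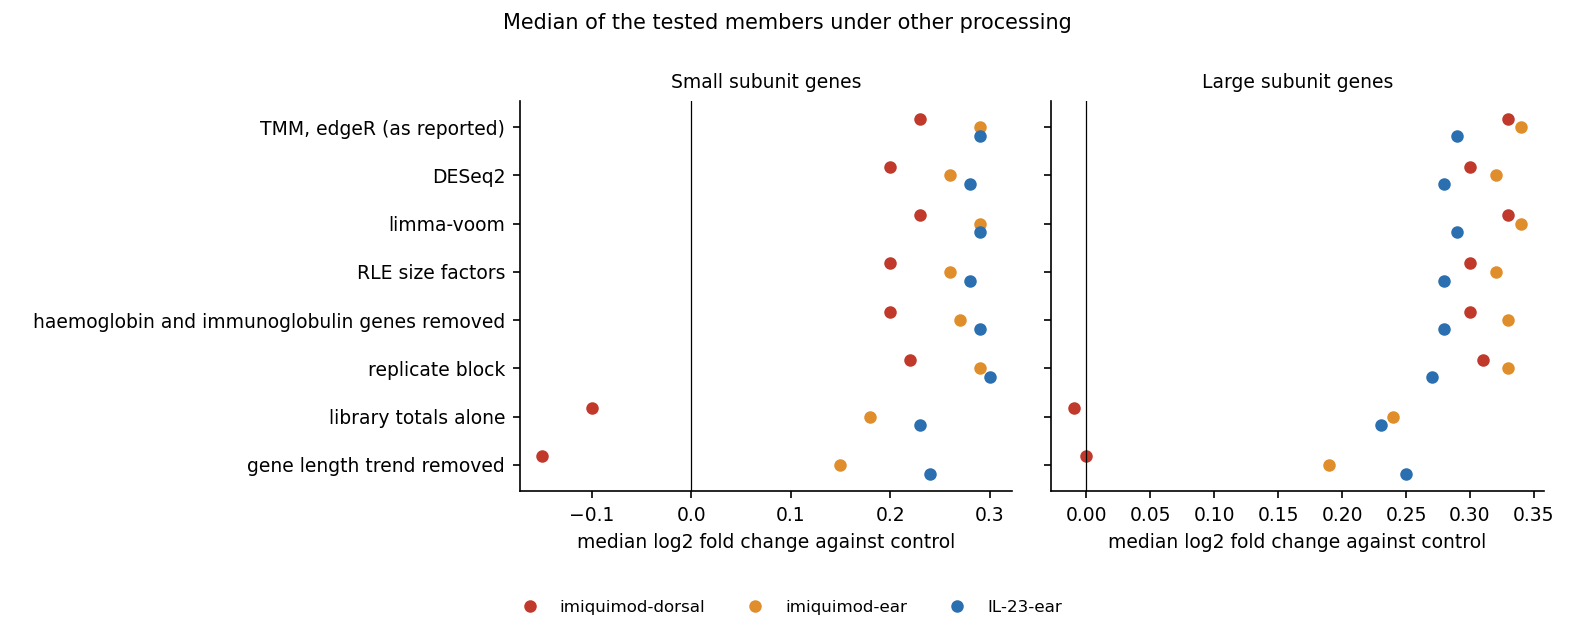
Median log2 fold change against control of the small (left) and large (right) subunit members under 8 ways of processing, 1 point per treated group. Imiquimod-dorsal turns from 0.23 to -0.10 (small) and from 0.33 to -0.01 (large) when library totals replace TMM, and to -0.15 and -0.00 with the length trend removed, while both ear groups stay above 0 in each setting drawn.

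The largest rise with dorsal imiquimod was in Rps27l (build GRCm39, chr9:66853340-66856808, plus strand, 4 exons), a paralog of Rps27 that is known as a target of p53. Its level was 31.5, 33.4 and 44.1 CPM in control and 84.8, 96.1, 87.2 and 85.0 in imiquimod-dorsal, 63.9, 73.6, 57.8 and 44.6 in imiquimod-ear, and 40.1, 43.6 and 47.9 in IL-23-ear. Every imiquimod-dorsal library was above every library of the other groups; every imiquimod-ear library was above the controls, replicate 5 by the least; and IL-23-ear overlapped control. Rps27l rose by 1.28 ± 0.15 (log2 fold change ± SE, adjusted p = 1.14e-05) with dorsal and by 0.72 ± 0.15 (adjusted p = 0.00618) with ear imiquimod, and the value of 0.27 ± 0.16 with IL-23 did not pass (adjusted p = 0.696). The rise with dorsal imiquimod was 0.94 with library totals and 0.79 with the length trend removed, and was called in both. With the length trend removed the imiquimod-ear value of 0.31 was not called.

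Rpl41 (chr10:128383979-128387628, minus), the smallest protein of the large subunit, rose in the same groups. Its level was 611, 541 and 689 CPM in control, 1051, 1149, 1098 and 1066 in imiquimod-dorsal, 992, 1121, 981 and 728 in imiquimod-ear, and 757, 816 and 781 in IL-23-ear. No treated library overlapped the controls, and imiquimod-ear 5 was the lowest of all treated libraries. The log2 fold change was 0.83 ± 0.12 (adjusted p = 4.78e-05) with dorsal imiquimod, 0.64 ± 0.12 (adjusted p = 0.00415) with ear imiquimod and 0.35 ± 0.13 (adjusted p = 0.435) with IL-23.

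Rps2 (chr17:24937080-24940904, plus), a protein at the mRNA entry of the small subunit, is counted at 5.17% of the median level per coding kilobase. Exact copies elsewhere match 49.6% of its windows, and whether its reads were lost or moved to copies was not tested. It was at 34.4, 41.9 and 58.2 CPM in control, 91.2, 70.7, 96.2 and 81.0 in imiquimod-dorsal, 83.6, 88.5, 86.0 and 50.3 in imiquimod-ear, and 49.3, 66.3 and 49.96 in IL-23-ear. Imiquimod-dorsal lay above every control, whereas imiquimod-ear 5 and the IL-23-ear libraries lay in or near the control range. It rose by 0.92 ± 0.22 (adjusted p = 0.00278) with dorsal imiquimod and by 0.78 ± 0.22 (adjusted p = 0.0236) with ear imiquimod. The latter call was lost without control 2 (0.59), control 4 (0.70), imiquimod-ear 1 (0.71) or imiquimod-ear 3 (0.68).

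Rps27 (chr3:90119819-90120977, minus), a zinc-finger protein of the small subunit, went the other way. It was at 376, 349 and 328 CPM in control, 310, 317, 303 and 318 in imiquimod-dorsal, 382, 358, 395 and 412 in imiquimod-ear, and 449, 488 and 462 in IL-23-ear. Every imiquimod-dorsal library lay below every library of the other groups, and every IL-23-ear library lay above. Rps27 fell by 0.17 ± 0.07 on the log2 scale with dorsal imiquimod (adjusted p = 0.0359), a call that was lost without control 2 (-0.17), imiquimod-dorsal 2 (-0.17) or imiquimod-dorsal 4 (-0.16). With library totals the fold change was -0.51. The values of 0.14 ± 0.07 with ear imiquimod (adjusted p = 0.146) and 0.41 ± 0.07 with IL-23 (adjusted p = 0.0571) did not pass. Of the coding windows of Rps27, 85.8% have exact copies elsewhere; the expressed copy Rps27rt, outside the symbol rule, had log2 fold changes of -0.35 ± 0.15 (adjusted p = 0.0496), 0.02 ± 0.15 (adjusted p = 0.918) and 0.38 ± 0.16 (adjusted p = 0.502) in the same order.

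**Figure D4:**
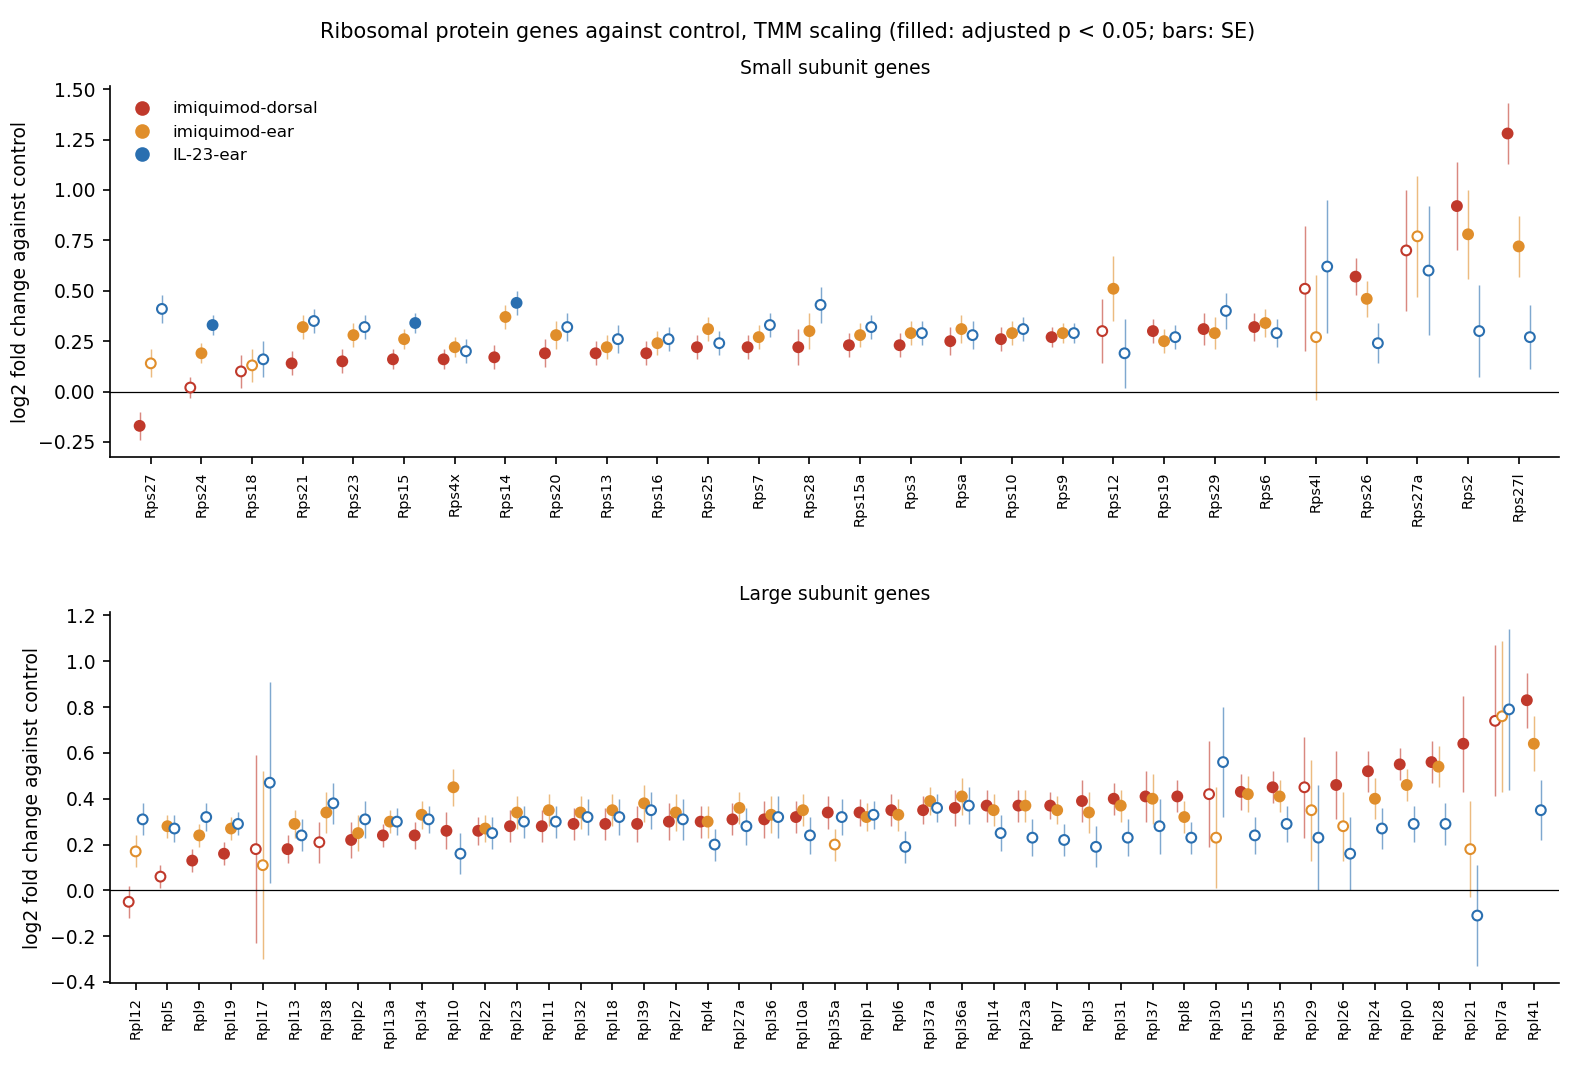
Log2 fold change against control with TMM scaling for 78 tested members less 5 that are not drawn, small subunit above and large subunit below, ordered by the value with dorsal imiquimod; filled points have an adjusted p under 0.05 and bars are 1 SE. Most values lie between 0.1 and 0.5 in each treated group, Rps27l, Rps2 and Rpl41 stand high with imiquimod, and Rps27 alone is called lower; with library totals alone 16 members are called lower with dorsal imiquimod.

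With imiquimod on the ear, 66 of the 78 tested members were higher than in control and none was lower, where 21.2% of all genes were called, 14.3% higher and 6.98% lower. The median log2 fold change was 0.32 over the members and 0.02 over all genes. The subunits were close, with 28 of 32 small (median 0.29) and 38 of 46 large subunit genes higher (median 0.34). With library totals 50 were higher and none lower (background 9.49% higher). The 12 that did not pass include Rps27, Rpl12 and members with a wide spread between replicates, such as Rpl17 and Rps27a. Without control 2 the count was 41 and without control 4 it was 30, and without imiquimod-ear 5 it was 67.

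With IL-23 in the ear the fold changes of members were as large, with medians of 0.29 in both subunits against 0.01 over all genes, and 77 of 78 were above 0, but 3 passed: Rps14, Rps15 and Rps24. The background was 0.0528%, or 8 of 15159 genes, with 0.0462% higher and 0.0066% lower. At an unadjusted p under 0.05 the members numbered 66 of 78 and all genes 1305. DESeq2 called 42 members, 24 of the small and 18 of the large subunit, all higher, where it called 0.884% of all genes and 0.732% higher. The edgeR calls did not last: leaving out any 1 control, imiquimod-dorsal or IL-23-ear library gave 0 members called, leaving out an imiquimod-ear library gave 0 (replicates 1 and 4), 1 (replicate 3) or 5 (replicate 5), and library totals gave 0 members of 0 genes called.

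Rps14, a protein of the platform of the small subunit, was at 704, 718 and 752 CPM in control, 777, 799, 797 and 878 in imiquimod-dorsal, 983, 873, 954 and 928 in imiquimod-ear, and 983, 1004 and 968 in IL-23-ear. Each treated library was above every control. It rose by 0.44 ± 0.06 (adjusted p = 0.045) with IL-23 and by 0.37 ± 0.06 (adjusted p = 0.00288) with ear imiquimod. With dorsal imiquimod it rose by 0.17, and with library totals both it and Rps15 were called lower there (-0.17 each).
Rps15 (chr10:80128249-80129955, plus), near the decoding site, was at 973, 922 and 960 CPM in control and 1163, 1262 and 1190 in IL-23-ear. It ranged from 1051 to 1091 in imiquimod-dorsal and 1109 to 1159 in imiquimod-ear, so that the control libraries were again the lowest. Its log2 fold change with IL-23 was 0.34 ± 0.05 (adjusted p = 0.045).
Rps24 (chr14:24537193-24547028, plus), mutated in some families with Diamond-Blackfan anaemia in humans, was at 1189, 1120 and 1125 CPM in control, 1159, 1158, 1200 and 1136 in imiquimod-dorsal, 1300, 1305, 1301 and 1299 in imiquimod-ear and 1383, 1485 and 1455 in IL-23-ear. Imiquimod-dorsal overlapped control, and IL-23-ear lay above all other libraries. The log2 fold change was 0.33 ± 0.05 (adjusted p = 0.045) with IL-23 and 0.02 ± 0.05 (adjusted p = 0.698) with dorsal imiquimod, and the latter became -0.31 and called with library totals.

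Between the treated groups few members differed under TMM scaling. Imiquimod-ear against imiquimod-dorsal called 8 members higher and 1 lower (background 47.7% called, 23.3% higher and 24.5% lower). IL-23-ear against imiquimod-ear called 1 higher and 1 lower (background 17.3%, 7.06% and 10.2%), and IL-23-ear against imiquimod-dorsal 11 higher and 9 lower (57.1%, 27.1% and 30%). The last split rests in part on single libraries and settings: it was 18 higher and 2 lower without IL-23-ear 1, 12 and 4 without IL-23-ear 3, and 26 and 3 with the length trend removed. Without imiquimod-ear 5 the first count became 15 higher and 1 lower and the second 2 higher and 9 lower. With library totals the first was 63 higher and 1 lower (background 57.2%) and the third 52 higher and 1 lower (63.5%), since that scaling moves the median of all genes to 0.26 and 0.28.

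Rps27 had the largest called rise in each of these 3 comparisons: 0.31 ± 0.06 (adjusted p = 0.000939) in imiquimod-ear over imiquimod-dorsal, 0.27 ± 0.07 (adjusted p = 0.0143) in IL-23-ear over imiquimod-ear, and 0.58 ± 0.07 (adjusted p = 6.07e-06) in IL-23-ear over imiquimod-dorsal. The second was lost without IL-23-ear 2 (0.25). All 3 kept their sign and their call with library totals (0.55, 0.31 and 0.86) and with the length trend removed (0.43, 0.44 and 0.87). Rps27l had the opposite sign, at -0.56 ± 0.14 (adjusted p = 0.00444), -0.45 ± 0.15 (adjusted p = 0.0527) and -1.01 ± 0.15 (adjusted p = 7.11e-05).

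Rpl12 (chr2:32851496-32855357, plus), a protein at the base of the stalk, was at 820, 877 and 873 CPM in control, 798, 854, 876 and 777 in imiquimod-dorsal, 939, 986, 957 and 986 in imiquimod-ear and 946, 1116 and 1135 in IL-23-ear. Both ear groups lay above all control and imiquimod-dorsal libraries. It was higher than in imiquimod-dorsal by 0.23 ± 0.06 (adjusted p = 0.0108) in imiquimod-ear and 0.37 ± 0.07 (adjusted p = 0.000469) in IL-23-ear.
Rpl10 (chrX:73314418-73316741, plus), which completes the peptidyl transferase centre late in assembly, was at 840, 827 and 903 CPM in control and 1197, 1343, 1159 and 991 in imiquimod-ear. In IL-23-ear it was at 920, 999 and 961, below all imiquimod-ear libraries but replicate 5. It was lower in IL-23-ear than in imiquimod-ear by -0.29 ± 0.08 on the log2 scale (adjusted p = 0.032). This call was lost without any 1 of the IL-23-ear libraries or of imiquimod-ear 1, 3 and 4, with values of -0.30 to -0.20.
Rps2, listed with Rps27l among the largest falls in IL-23-ear against imiquimod-dorsal, was lower by -0.62 ± 0.22 (adjusted p = 0.0256), a call lost without imiquimod-dorsal 2 (-0.58), imiquimod-dorsal 4 (-0.55), IL-23-ear 1 (-0.50) or IL-23-ear 3 (-0.51).

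**Figure D5:**
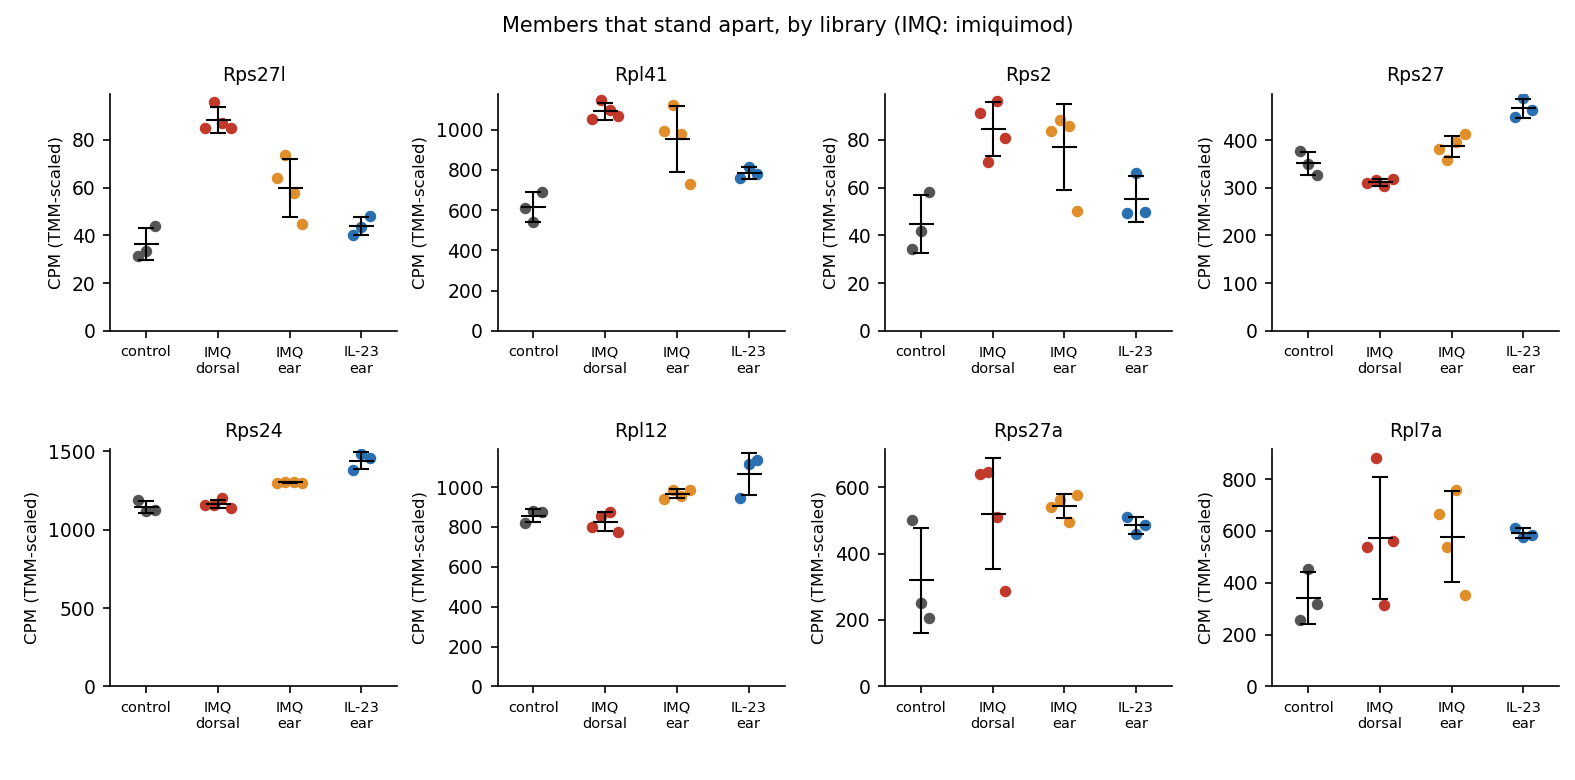
TMM-scaled CPM per library for 8 members, with mean ± SD as bars. Rps27l, Rpl41 and Rps2 are highest with dorsal imiquimod, where Rps27 is lowest; Rps24 and Rpl12 are highest with IL-23; and Rps27a and Rpl7a spread widely within groups. With library totals in place of TMM, Rps24 turns from 0.02 to -0.31 (log2) in imiquimod-dorsal against control.

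Several members have known roles outside peptide synthesis. Of the small subunit, Rpsa, also the laminin receptor, Rps3, also a DNA repair factor, Rps6, the substrate of S6 kinase, and Rps19, the gene most often mutated in human Diamond-Blackfan anaemia, had log2 fold changes of 0.25, 0.23, 0.32 and 0.30 with dorsal imiquimod and 0.31, 0.29, 0.34 and 0.25 with ear imiquimod, all called. With library totals all 4 turned to values from -0.10 to -0.01 with dorsal imiquimod. With IL-23 they were 0.28, 0.29, 0.29 and 0.27, none called.

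Of the large subunit, Rpl5 and Rpl11 join the 5S ribosomal RNA in a particle that also binds MDM2, the p53 inhibitor. With dorsal imiquimod Rpl11 rose by 0.28 ± 0.07 (adjusted p = 0.00245) and Rpl5 had 0.06 ± 0.05 (adjusted p = 0.36); the difference between the pair was not tested. Rpl5 was higher in imiquimod-ear than in imiquimod-dorsal by 0.22 ± 0.05 (adjusted p = 0.00257). Rpl13a, which in humans is released to silence inflammatory mRNAs, rose by 0.24 with dorsal and 0.30 with ear imiquimod, and Rpl22, needed for alpha-beta T cell development in the mouse, by 0.26 and 0.27. Rpl38, required in the mouse for translation of Hox mRNAs, had 0.21 ± 0.09 (adjusted p = 0.0564) and 0.34 ± 0.09 (adjusted p = 0.0168). The stalk proteins Rplp0, Rplp1 and Rplp2 were all higher with dorsal (0.55, 0.34 and 0.22) and ear imiquimod (0.46, 0.32 and 0.25). With library totals Rpl11, Rpl13a, Rpl22 and Rplp2 turned negative with dorsal imiquimod (-0.05, -0.09, -0.08 and -0.12). Of 21 genes mutated in human Diamond-Blackfan anaemia, 18 were higher and Rps27 was lower with dorsal imiquimod, 18 were higher with ear imiquimod, and Rps24 was higher with IL-23, shares near those of all 78 members (64 and 66 higher).

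Replicates agreed closely for most members. The median coefficient of variation over the 78 was 5.43% in control, 3.82% in imiquimod-dorsal, 7.13% in imiquimod-ear and 4.8% in IL-23-ear. In 11 members, named after their values were seen, it passed 20% in some group: Rpl7a, Rpl17, Rpl21, Rpl26, Rpl29, Rpl30, Rps2, Rps4l, Rps12, Rps27a and Rps27l. Rps27a, which is made as a fusion with ubiquitin, was at 500, 253 and 206 CPM in control, 640, 644, 509 and 288 in imiquimod-dorsal, 539, 562, 495 and 576 in imiquimod-ear and 511, 459 and 485 in IL-23-ear. The control at 500 lay within the range of each treated group, and the imiquimod-dorsal library at 288 lay between it and the other controls. The fold changes of 0.70 ± 0.30, 0.77 ± 0.30 and 0.60 ± 0.32 did not pass. Of its coding windows 79.9% have an exact copy elsewhere.

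Ribosomal proteins named outside the rule followed the members. Of 8 such genes found in the table, 7 were higher and 1, Rps27rt, lower with dorsal imiquimod, 6 were higher with ear imiquimod and none was called with IL-23 (7 of 8 at an unadjusted p under 0.05 by edgeR), where 32.3%, 14.3% and 0.0462% of all genes were higher. Rack1, a scaffold on the small subunit, rose by 0.31 and 0.37, Fau, made as a ubiquitin-like fusion, by 0.17 and 0.20, and Rpl22l1, a paralog of Rpl22, by 0.55 and 0.36. Rack1 and Fau turned to -0.03 and -0.17 with library totals in imiquimod-dorsal. Translation factors and other genes whose mRNAs are known for the same pyrimidine tract were listed together. Of the 18, 16 were higher with dorsal imiquimod (median 0.47) and 17 with ear imiquimod (0.34). With IL-23, 0 were higher (0.17), and 8 of 18 had an unadjusted p under 0.05 by edgeR. The 18 genes compare with the same shares of all genes. Among them, Eef2, the translocase of elongation, rose by 0.36 and 0.30, and Npm1, a nucleolar chaperone, by 0.62 and 0.58, whereas Eef1a1 and Tpt1 had 0.09 and 0.04 with dorsal imiquimod (adjusted p = 0.195 and 0.55) and rose by 0.23 and 0.18 with ear imiquimod.

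For the other lists that follow, the background is again 32.3% of all genes higher and 27.6% lower with dorsal imiquimod, and 14.3% higher and 6.98% lower with ear imiquimod. Of 50 assembly factors, 29 were higher with dorsal imiquimod (median 0.29), above the background share, and 3 with ear imiquimod (median 0.18), below it. Ncl, the nucleolar protein nucleolin, rose by 0.62 ± 0.16 (adjusted p = 0.00485) and Fbl, the methyltransferase fibrillarin, by 0.44 ± 0.13 (adjusted p = 0.0108) with dorsal imiquimod, and Eif6, which keeps free large subunits apart, by 0.46 ± 0.09 (adjusted p = 0.000821). RNA polymerase I, which transcribes the large ribosomal RNAs, had 4 of 14 genes higher and 3 lower with dorsal imiquimod and 2 higher and 1 lower with ear imiquimod, all near the background shares; its main subunits Polr1a and Polr1b had -0.03 and -0.02 with dorsal imiquimod, neither called. Importers and chaperones of ribosomal proteins were higher in 6 of 11 genes with dorsal and 0 of 11 with ear imiquimod (2 of 11 at an unadjusted p under 0.05 by edgeR), against 32.3% and 14.3% of all genes, and Tsr2, the escort of Rps26, had -0.07 and 0.10.

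Of 15 genes that control translation or ribosomal protein mRNAs, 6 were higher and 1 lower with dorsal imiquimod, and 3 were higher with ear imiquimod, where 32.3%, 27.6% and 14.3% of all genes were. Eif4ebp1, which blocks cap-dependent translation until mTOR phosphorylates it, rose by 1.01 ± 0.15 (adjusted p = 6.32e-05) with dorsal imiquimod, from 20.8 to 41.9 mean CPM, and had 0.30 ± 0.15 (adjusted p = 0.162) with ear imiquimod. Myc, a transcription factor that drives ribosome production, was lower with dorsal imiquimod, by -0.57 ± 0.17 (adjusted p = 0.0104), and Larp1 had 0.33 ± 0.14 (adjusted p = 0.0538).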

How the data were processed

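The authors deposited 1 table of raw read counts per gene and library, as its whole numbers show. Per the submitters' processing notes, the study used DESeq2 1.38.3, featureCounts 2.0.3, HISAT2 2.2.1, StringTie 2.2.1, fastp 0.23.2 and build GRCm39; their roles, settings, annotation and treatment of reads with several matches are not stated. The kit marks no strand, per the labels' protocols, so a member and an antisense neighbour share reads. Of 22740 entries, 624 unnamed loci (0.484% to 0.674% of counts) were left out. A floor of 3 counts equals 0.0745 to 0.106 CPM and covers counting error only.

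The 14 libraries were fitted together in edgeR 4.0.16 (R 4.3.3; robust quasi-likelihood, TMM, filterByExpr with minimum count 10, 10 residual degrees of freedom), with Benjamini-Hochberg adjustment over 15159 genes and a threshold of 0.05; each adjusted p is from this fit unless another tool is named. CPM are TMM-scaled, and fold changes are log2 with SE. Alternatives were DESeq2 1.42.0, limma 3.58.1 (voom), other scalings, filters and blocks, a loess fit on gene length (span 0.3), and each library left out; scripts were tested on simulated data. Gene positions, coding lengths and copies came from GENCODE mouse release 39 on GRCm39. Per-library values are given for the 3 largest called rises and falls of each treated group against control and the 2 largest between treated groups, with log2 CPM averaging 3 or more; other members of known role are named whatever their result. The members, lists and tests were chosen with earlier results of these data known. All replicates differed by more than sampling noise. Comparisons with control share its 3 libraries. Values of some single genes are not reported here; counts and sums include them.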

Additional observations from a re-analysis of the deposited data

Results flagged for a closer look

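In the imiquimod-ear group, 3 of the members examined had 1 library far from the rest. This was measured as the gap between the extreme library and its neighbour as a share of the group's range. For Rps3 the share was 0.987, with replicate 5 at 1767 CPM and the others at 1925 to 1927. For Rps2 it was 0.871, with replicate 5 at 50.3 and the others at 83.6 to 88.5, and for Rpl3l it was 0.948, with replicate 4 at 2.41 CPM and the others at 0.126 or less. All 3 pass Dixon's critical value for 4 libraries. The 90 groups of 4 libraries examined do not cover all 81 members, and chance flags about 1 in 20.

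Of the genes whose change against control differed between treated groups by edgeR's test of the difference, 2 were flagged. Other members, such as Rps27l, Rpl12 and Rpl5, also differed by that test, as given above. Rps27 was higher in imiquimod-ear than in imiquimod-dorsal by 0.31 and in IL-23-ear than in imiquimod-dorsal by 0.58 on the log2 scale; its fall against control with dorsal imiquimod was lost in 3 leave-one-out fits, and its values of 0.14 and 0.41 against control in the ear groups were uncalled. Eif4ebp1 differed by -1.1 between IL-23-ear and imiquimod-dorsal, from 1.01 with dorsal imiquimod to -0.09 with IL-23, the latter uncalled.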

How the results depend on the processing

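Members called against control with dorsal imiquimod numbered 65 and became 23 with library totals and 6 with the length trend removed. With ear imiquimod 66 became 0 with the length trend removed, 5 with a replicate block and 38 with only the groups compared. With IL-23, 3 became 42 with DESeq2, 8 with voom and 0 with RLE size factors, library totals, no filter on low counts, the length trend removed, the replicate block, or only the groups compared. Imiquimod-ear against imiquimod-dorsal went from 9 to 14 with DESeq2, 64 with library totals and 16 with the length trend removed; IL-23-ear against imiquimod-ear from 2 to 5 with DESeq2, 0 with the block and 1 with only the groups compared; IL-23-ear against imiquimod-dorsal from 20 to 53 with library totals and 13 with the block. Leaving out 1 library gave 39 (control 4) to 63, 30 (control 4) to 67, 0 to 5 (imiquimod-ear 5), 7 to 16 (imiquimod-ear 5), 0 (IL-23-ear 2) to 11 (imiquimod-ear 5) and 16 to 25 calls in these 6 comparisons. Without haemoglobin and immunoglobulin genes the imiquimod-dorsal to control ratio of shares was 1.03 for all members, 1.0 for small and 1.06 for large subunit genes. Leaving out 1 library moved the small to large ratio against control within 0.937 to 0.958 (imiquimod on the back), 0.958 to 0.984 (imiquimod on the ear) and 1.0 to 1.02 (IL-23). With library totals the log2 fold change turned sign in imiquimod-dorsal against control for Eef1a1 -0.24, Fau -0.17, Rack1 -0.03, Rpl10 -0.08, Rpl11 -0.05, Rpl13a -0.09, Rpl22 -0.08, Rpl5 -0.28, Rplp2 -0.12, Rps14 -0.17, Rps15 -0.17, Rps19 -0.04, Rps24 -0.31, Rps3 -0.10, Rps6 -0.01, Rpsa -0.09 and Tpt1 -0.30; in IL-23-ear against imiquimod-dorsal for Eif6 0.01, Rpl22l1 0.08 and Rplp0 0.02; and in imiquimod-ear against imiquimod-dorsal for Rpl22l1 0.04. With the length trend removed it turned in imiquimod-dorsal against control for Fau -0.11, Rpl10 -0.07, Rpl11 -0.11, Rpl13a -0.15, Rpl22 -0.18, Rpl38 -0.40, Rplp2 -0.24, Rps14 -0.02, Rps15 -0.35, Rps19 -0.03, Rps3 -0.01, Rps6 -0.07, Rpsa -0.06 and Tpt1 -0.42; in imiquimod-ear against control for Fau -0.01, Rpl22 -0.07, Rplp2 -0.12, Rps15 -0.03 and Tpt1 -0.08; in imiquimod-ear against imiquimod-dorsal for Rpl22l1 0.05; and in IL-23-ear against imiquimod-dorsal for Eif6 0.11, Rpl22l1 0.10 and Rplp0 0.07. Of 89 calls for named genes, 49 were kept in every leave-one-out fit. Replicate numbers showed no sign of pairing the libraries, which groups this small cannot exclude. The 13 same-numbered pairs had correlations of deviations from -0.241 to 0.183, with 1 over 0.1. The replicate block gave 53 calls in imiquimod-dorsal against control and 7 in imiquimod-ear against imiquimod-dorsal. Its counts in the other comparisons are given above. The analyses without the variable members were chosen after seeing the data, and the cause of these shifts was not tested.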
